A study of Mus musculus with 11 samples.

Results

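The genes described here are 8 components of insulin signaling in adipocytes: the receptor gene Insr, the adaptor genes Irs1 and Irs2, Pik3r1 for the regulatory subunit of PI3K, the kinase genes Akt1 and Akt2, the adaptor and ubiquitin ligase gene Cbl, and Foxo1 for a transcription factor that AKT acts on. They were chosen by name. All 8 were matched in every file, out of 29955 gene symbols, by the sense row that the files mark as representing each symbol. RNA was measured in 11 samples of im-scWAT, a preadipocyte line from mouse inguinal subcutaneous white fat that was immortalized with SV40 large T antigen. A time course of 6 samples without JMJD1A constructs covered day 0, when the cells were confluent preadipocytes, and days 4 and 8 of adipogenesis, each with and without rosiglitazone (ROS), a PPARγ ligand used at 0.5 μM. Another 5 samples were taken at day 8 with ROS from cells that all carried a retroviral shRNA against mouse Jmjd1a together with human JMJD1A (hJMJD1A) expressed from a retroviral LTR promoter. The hJMJD1A was WT in 2 of them, called WT A and WT B, and one of the mutants S265A, S265D and S265D-H1120Y in the others, with 1 sample for each mutant.

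All induced cells, with or without ROS, received insulin throughout, together with T3, and indomethacin, dexamethasone and 3-isobutyl-1-methylxanthine for the first 2 days. Insulin was thus in the medium of every sample of days 4 and 8, and no sample of those days was without it. The samples labelled minus never received ROS. For the others, the labels state that ROS was taken out of the medium on day 7, whereas the methods for im-scWAT keep it in the medium until day 8, so the samples were grouped by ROS alone. Both samples of day 0 are preadipocytes at the start of differentiation, although their labels say plus and minus for ROS, and they were used as 2 samples of 1 group. Nothing in the labels says that WT A and WT B, or both samples of day 0, came from separate cultures. The spread between these samples, on which p-values rest, may thus be technical. In the fits of day the spread also includes the difference between ROS and no ROS. In the fit of ROS it includes the change of that difference between days 4 and 8.

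Insulin binds the insulin receptor, a tyrosine kinase that phosphorylates the IRS adaptor proteins. IRS1 and IRS2 then recruit PI3K through its regulatory subunits, the lipid product of PI3K brings AKT to the membrane, and AKT drives the storage of glucose and fat in adipocytes, in part by sending the glucose transporter GLUT4 to the cell surface. AKT also phosphorylates FOXO1, which keeps it out of the nucleus. CBL is phosphorylated by the receptor in adipocytes through the adaptor APS, and it can also mark receptors for degradation.

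The values are FPKM, that is, coverage per kilobase of exon and per megabase of mapped bases, so levels of different genes can be set side by side. The total of mapped bases was between 3.10 and 5.29 Gb per sample (median 4.64 Gb). The lowest coverage of any of the 8 genes in any sample was 48319 mapped bases, so depth did not limit their values. The antisense rows held at most 1.05% of the mapped bases of any of the 8 genes. The adipocyte markers followed the labels. The summed FPKM of 8 adipocyte markers was 285 to 287 at day 0 and 11669 to 35783 at days 4 and 8, and Plin1 and Cfd were under 0.1 at day 0. The sum of 5 preadipocyte markers did not separate day 0 from the rest. It was 483 to 549 at day 0, 131 to 555 at days 4 and 8 and 136 to 552 in the transduced samples. Most of each sum was Ly6a, at 424 and 484 FPKM at day 0 and 108 to 495 at days 4 and 8. Taken singly, Dlk1, Cd34 and Thy1 did separate day 0, with lower values in every sample of days 4 and 8. Pdgfra went the other way, at 11.8 and 11.9 FPKM at day 0 and 18.3 to 50.2 at days 4 and 8. The leukocyte marker Ptprc and the macrophage marker Emr1 were under 0.1 in all 11 samples, as was the endothelial marker Cdh5. The summed FPKM of the 4 macrophage and leukocyte markers was 2.51 to 2.63 at day 0, 0.541 to 4.31 at days 4 and 8 and 5.03 to 21.7 in the transduced samples, most of it from the lysosomal marker Cd68. The sum of the 4 endothelial markers was 0.422 to 0.483 at day 0, 0.353 to 1.06 at days 4 and 8 and 1.02 to 4.00 in the transduced samples, where Pecam1 was 0.965 to 3.47 FPKM against 0.0526 to 0.263 in the untransduced ones. The mRNA of Kdm3a, the mouse gene for JMJD1A and the target of the shRNA, was 20.4 FPKM in WT A, 17.9 in WT B, 13.0 in S265A, 23.0 in S265D and 28.5 in S265D-H1120Y, against 15.1 to 23.2 FPKM in the untransduced samples. These ranges overlap, and the files do not separate reads of the human cDNA from those of the mouse gene, so Kdm3a does not check the labels of the transduced samples.

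At day 0, Akt1 was by far the most abundant of the 8 transcripts, at 81.0 and 89.6 FPKM, followed by Akt2 at 28.6 and 29.7. Pik3r1 (11.3 and 9.0 FPKM) and Irs1 (8.89 and 8.55) came next and were close to each other, then Foxo1 (4.52 and 4.59) and Cbl (3.29 and 2.85). Insr (2.74 and 2.70 FPKM) and Irs2 (2.58 and 2.71) were the lowest, and their ranges overlapped. In the 2 WT samples at day 8 the order was different. Akt2 led at 114 and 68.4 FPKM, the ranges of Pik3r1 (48.6 and 22.3) and Akt1 (34.9 and 22.4) overlapped, and Foxo1, Irs2, Insr and Irs1 all lay between 11.3 and 14.6 FPKM. Cbl was the lowest of the 8 there, at 4.64 and 3.86 FPKM.

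**Figure D1:**
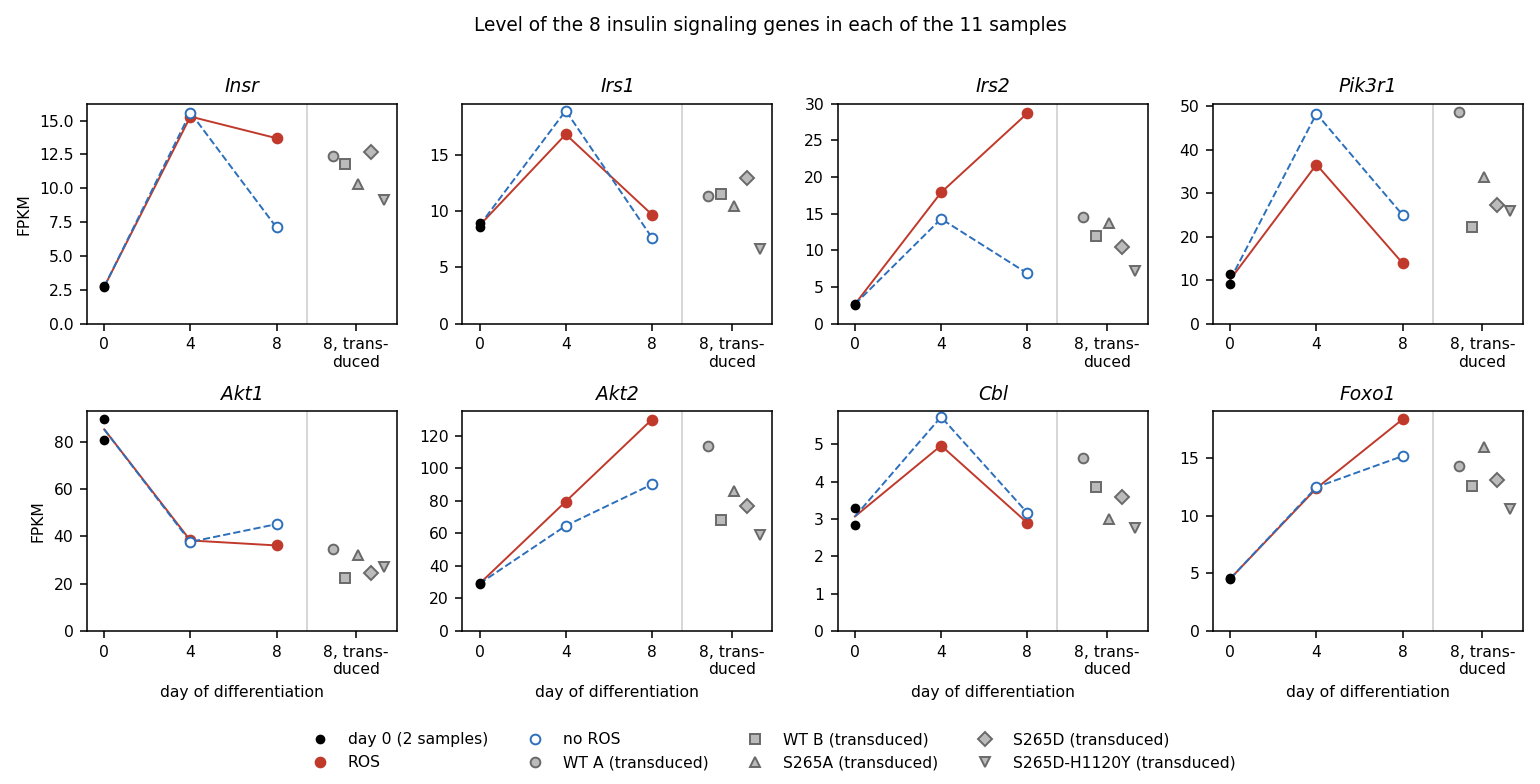
FPKM (y axis, from 0, a separate scale for each gene) of the 8 genes by day of differentiation, with both samples of day 0 as black points, ROS in red, no ROS in blue and the 5 transduced samples in grey; lines join the mean of day 0 to single samples. Akt1 falls from 81.0 and 89.6 FPKM at day 0 to between 36.2 and 45.2 FPKM at days 4 and 8, while Akt2 and Foxo1 are higher in each later sample than at day 0, and Irs1 and Cbl peak at day 4.

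To find how the pathway's transcripts changed during adipogenesis, days 4 and 8 were each compared with day 0 in the 6 untransduced samples. By day 4 all 8 genes had changed: 7 were higher than at day 0 (adjusted p from 0.00125 to 0.0206) and Akt1 was lower. These calls are from limma on log2(FPKM + 0.1) over 16400 genes, with Benjamini-Hochberg adjustment at 0.05. In that comparison 39.2% of all genes tested were called in either direction, 20.6% as higher and 18.6% as lower. At day 8, Insr, Irs2, Akt2 and Foxo1 were higher than at day 0 and Akt1 was lower, whereas Irs1, Pik3r1 and Cbl were not called, and 48.2% of all genes were called (24.5% higher and 23.7% lower). The median difference of the 8 genes was 1.36 at day 4 and 1.35 at day 8, on the log2 scale, against 0.01 and -0.03 for all genes tested. Both comparisons share the samples of day 0. Because ROS and no-ROS samples of a day are averaged here, the spread includes any difference that ROS made. Preparations of bulk RNA do not tell a change in the share of cells of a type from a change of RNA per cell.

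These counts depend on having both samples of day 0. Without the sample labelled plus, 4 of the 8 genes were called at day 4 and 3 at day 8, and without the sample labelled minus, 3 were called at each. Akt1 and Foxo1 were called on both days in each of those fits, Insr at day 4 and Akt2 at day 8. The directions of all genes called in the full comparison were unchanged in them.

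Insr encodes the receptor for insulin and lies at chr8:3150922-3279617 on the minus strand (mm9). Its mRNA was 2.74 and 2.70 FPKM at day 0, 15.3 with ROS and 15.6 without ROS at day 4, and 13.7 with ROS and 7.10 without ROS at day 8. All 4 induced samples were thus above both samples of day 0, and the no-ROS sample of day 8 stood well below the other 3. The difference from day 0 was 2.46 ± 0.30 (log2, SE) at day 4 (adjusted p = 0.00228, limma) and 1.82 ± 0.30 at day 8 (adjusted p = 0.00487).

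Irs1 (chr1:82229680-82288014, mm9, minus strand) and Irs2 (chr8:10986964-11008430, mm9, minus strand) encode the main IRS adaptors of adipocytes, and the courses of their mRNAs differed. Irs1 was 8.89 and 8.55 FPKM at day 0, rose to 16.8 with ROS and 18.9 without ROS at day 4, and was 9.68 and 7.63 FPKM at day 8. The rise at day 4 was 1.02 ± 0.16 on the log2 scale (SE, adjusted p = 0.00547, limma), and by day 8 both samples were close to the values of day 0 (difference -0.02, 95% interval from -0.42 to 0.38). Irs2 was 2.58 and 2.71 FPKM at day 0, 17.9 with ROS and 14.3 without ROS at day 4, and 28.7 and 6.86 FPKM at day 8. It rose by 2.55 ± 0.61 at day 4 (adjusted p = 0.0205, limma) and by 2.37 ± 0.61 at day 8 (adjusted p = 0.0214), with the widest errors of the 8 genes, since its 2 samples of day 8 lay far apart. Irs2 had the largest range of the 8 genes over the 11 samples, with a highest value 11.1 times the lowest, against 2.84 times for Irs1.

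The ratio of Irs2 to Irs1 mRNA was 0.290 and 0.317 in the samples of day 0 and was higher in every other sample. It was 0.756 without ROS and 1.07 with ROS at day 4, and 0.899 and 2.97 at day 8. The transduced samples, all with ROS, lay between 0.808 and 1.31, below the untransduced day 8 sample with ROS.

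The promoters of these genes are shown because Irs1 and Irs2 share a pair of short motifs that no promoter window of the other members held. RefSeq windows (build GRCm38.p6, 250 bases before to 50 after a start site) were found for 7 of the 8 genes, 12 windows in all, with none for Insr. Each window was searched on both strands for CACGTG, the E-box bound by factors such as USF and TFE3, and for CAAAACA, a core of the insulin response element to which FOXO factors bind. Among all 32851 windows, CACGTG was present in 7.15% and CAAAACA in 6.28%, and both together in 0.408%. In Irs1 and Irs2 the motifs start within 10 bases of each other, a distance chosen after the sequences were seen, which was the case in 9 of the 32851 windows (0.0274%). The 150 bases before each start site are printed 5′ to 3′ on the gene's strand, with both motifs in capitals and CAAAACA read on the opposite strand as TGTTTTG. The Irs1 stretch is chr1:82291440-82291589 and the Irs2 stretch chr8:11008930-11009079, both on the minus strand of GRCm38.p6.
Irs1: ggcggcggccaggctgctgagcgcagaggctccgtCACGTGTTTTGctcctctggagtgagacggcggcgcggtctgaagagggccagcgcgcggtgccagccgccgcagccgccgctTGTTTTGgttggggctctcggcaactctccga
Irs2: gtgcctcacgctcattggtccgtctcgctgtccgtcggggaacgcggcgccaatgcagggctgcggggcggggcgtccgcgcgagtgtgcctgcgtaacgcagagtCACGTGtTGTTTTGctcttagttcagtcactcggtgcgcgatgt
In Irs1 the E-box starts 115 bases before the start site and overlaps a CAAAACA match that starts at 111 bases, and a further match lies at 32 bases. In Irs2 the E-box starts 44 bases before the start site and the CAAAACA match at 37 bases. Such matches are a description of the letters and no measure of binding. The mRNAs of these 2 genes followed different courses, as given above. Another FOXO motif, GTAAACA (3.65% of all windows), was found only in a window of Akt1 among the members.

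Pik3r1 (chr13:102450718-102538172, mm9, minus strand) encodes p85α and, from start sites further inside the gene, the shorter regulatory subunits p55α and p50α. Its mRNA was 11.3 and 9.0 FPKM at day 0, 36.6 with ROS and 48.3 without ROS at day 4, and 13.9 and 25.0 FPKM at day 8. It peaked at day 4 on both schedules and was lower with ROS than without on both days. The difference from day 0 was 2.05 ± 0.30 (log2, SE) at day 4 (adjusted p = 0.00438, limma) and 0.88 ± 0.30 at day 8, which did not pass (adjusted p = 0.0548).

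The files hold 4 sense rows for Pik3r1, which give the first and the last parts of the gene separately. The row over its first part, where p85α starts, was at 0.307 to 0.385 of the FPKM of the row over its last part, which is shared by all its products, in every one of the 11 samples. The ratio between these 2 rows thus stayed within a narrow range while the whole-gene level varied 5.40-fold. It does not give the share of p85α, because the 2710 exonic bases of the first-part row need not all belong to the p85α mRNA. The row over the whole gene (6913 bases) was 1.06 to 1.10 times the last-part row (5841 bases) over the 11 samples. The other members held between 1 and 4 sense rows each, and the rows that reach the same end of the gene differed by at most 1.09-fold in any sample.

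Akt1 (chr12:113892032-113912487, mm9, minus strand) and Akt2 (chr7:28390879-28424472, mm9, plus strand) encode AKT kinases, of which AKT2 is the one most closely tied to insulin-stimulated glucose uptake in fat. Their mRNAs moved in opposite directions. Akt1 was 81.0 and 89.6 FPKM at day 0, 38.3 with ROS and 37.7 without ROS at day 4, and 36.2 and 45.2 FPKM at day 8, and no induced sample reached the range of day 0. Akt1 fell by 1.16 ± 0.14 on the log2 scale (SE) at day 4 (adjusted p = 0.00226, limma) and by 1.07 ± 0.14 at day 8 (adjusted p = 0.00240). Akt2 was 28.6 and 29.7 FPKM at day 0, 79.6 with ROS and 64.7 without ROS at day 4, and 130 and 90.1 FPKM at day 8. Akt2 rose by 1.30 ± 0.20 at day 4 (adjusted p = 0.00511, limma) and by 1.89 ± 0.20 at day 8 (adjusted p = 0.00124).

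As a result the leading AKT transcript changed. Akt2 made up 26.1% and 24.9% of the summed FPKM of Akt1 and Akt2 at day 0, 67.5% with ROS and 63.2% without ROS at day 4, and 78.2% and 66.6% at day 8. In the transduced samples it made up 68.4% to 76.5%. The sum itself varied less, from 102 to 167 FPKM in the untransduced samples, than the ratio of Akt2 to Akt1, which went from 0.331 to 3.60.

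**Figure D2:**
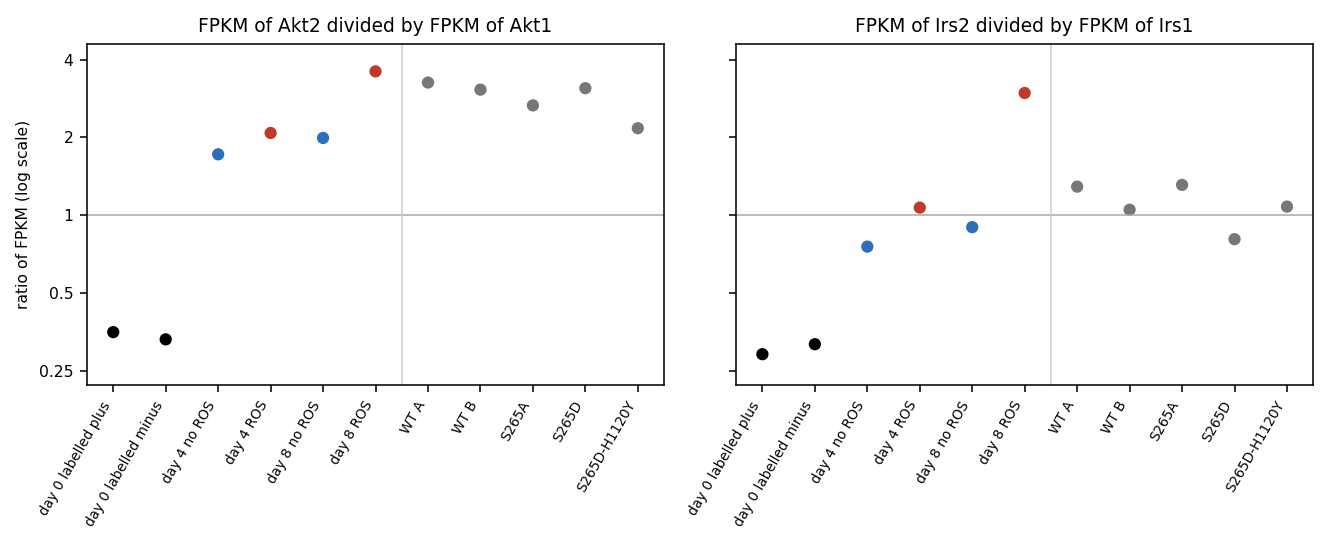
Ratio of FPKM (y axis, log scale) of Akt2 to Akt1 (left) and of Irs2 to Irs1 (right) in each of the 11 samples, with day 0 in black, ROS in red, no ROS in blue and transduced samples in grey. The Akt2 ratio is 0.353 and 0.331 at day 0 and between 1.72 and 3.60 in the other samples, and the Irs2 ratio is highest, at 2.97, in the untransduced day 8 sample with ROS.

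Cbl (chr9:43957345-44042129, mm9, minus strand) was the gene of the 8 that varied least, with a highest value 2.09 times the lowest over the 11 samples. Its mRNA was 3.29 and 2.85 FPKM at day 0, 4.97 with ROS and 5.74 without ROS at day 4, and 2.90 and 3.17 FPKM at day 8. The rise at day 4 was 0.78 ± 0.19 on the log2 scale (SE, adjusted p = 0.0206, limma), and both samples of day 8 lay within the range of day 0 (difference -0.02, 95% interval from -0.47 to 0.44). When each ROS condition was fitted as a group of its own, the rise at day 4 did not pass (adjusted p = 0.0506).

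Foxo1 (chr3:52072259-52154031, mm9, plus strand) encodes the FOXO factor that insulin signaling holds back. Its mRNA was 4.52 and 4.59 FPKM at day 0, 12.4 with ROS and 12.5 without ROS at day 4, and 18.4 and 15.2 FPKM at day 8. Each induced sample was above both samples of day 0, and both samples of day 8 were above both of day 4. The difference from day 0 was 1.43 ± 0.15 (log2, SE) at day 4 (adjusted p = 0.00125, limma) and 1.85 ± 0.15 at day 8 (adjusted p = 4.54e-04), the smallest adjusted p of the 8 genes on each day.

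Between days 4 and 8 none of the 8 genes passed the adjusted threshold, in a comparison where limma called 73 of 16400 genes (0.445%) and 3733 had an unadjusted p under 0.05. The largest differences were those of Pik3r1, at -1.17 (95% interval from -1.91 to -0.43, adjusted p = 0.115), and Irs1, at -1.04 (from -1.44 to -0.65, adjusted p = 0.0705). Cbl followed at -0.80 (from -1.25 to -0.34, adjusted p = 0.102). Insr was -0.64 (from -1.37 to 0.09, adjusted p = 0.262). For these 4 genes both samples of day 8 lay below both samples of day 4. Akt2 (0.59, adjusted p = 0.167) and Foxo1 (0.42, adjusted p = 0.169) were higher in both samples of day 8 than in both of day 4.

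**Figure D3:**
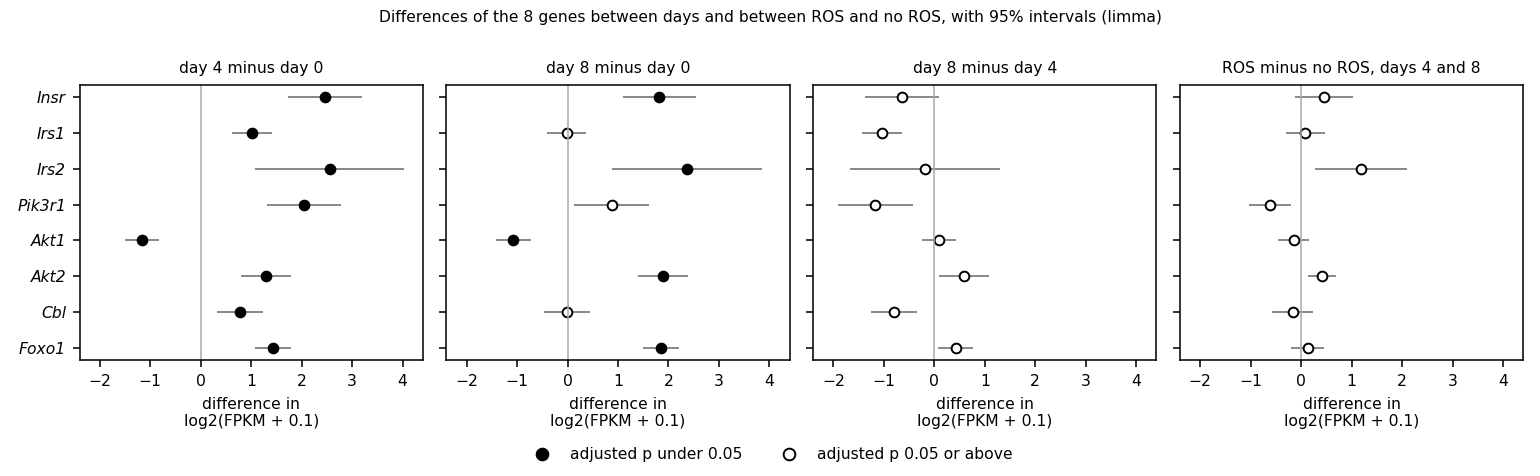
Difference in log2(FPKM + 0.1) (x axis) of the 8 genes between days and between ROS and no ROS, from limma on the 6 untransduced samples, with 95% intervals as lines; filled points passed an adjusted p of 0.05. All 8 points are filled for day 4 minus day 0, 5 for day 8 minus day 0, and none for day 8 minus day 4 or for ROS minus no ROS.

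The effect of ROS, which turns these cells towards beige adipocytes, was tested over days 4 and 8 together with day as a term. Limma called none of the 16400 genes (0%), with 3260 at an unadjusted p under 0.05, and so none of the 8. The median gene was lower with ROS by -0.134 on the log2 scale. Irs2 was higher with ROS on both days, with a difference of 1.19 (95% interval from 0.27 to 2.10, adjusted p = 0.184), as was Akt2, at 0.41 (from 0.14 to 0.69, adjusted p = 0.164). Pik3r1 was lower on both days, at -0.62 (from -1.03 to -0.21, adjusted p = 0.164), and Cbl too, at -0.17 (from -0.57 to 0.24, adjusted p = 0.592). The intervals of the other 4 genes also included 0.

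At day 4, none of the 8 genes differed 2-fold between ROS and no ROS, and 3.21% of 15246 genes did. At day 8 the count was 1, Irs2, at 4.19 times the FPKM with ROS (28.7 against 6.86), and 14.5% of 15536 genes were 2-fold apart, 3.06% higher and 11.5% lower with ROS. Insr came next, at 1.93 times (13.7 against 7.10), followed by Pik3r1, at 1.80 times in favour of no ROS (25.0 against 13.9). Akt2 was 1.45 times as high with ROS. With 1 sample for each condition these folds have no replicate check. Markers of cell state moved with ROS as well. All 5 preadipocyte markers were lower with ROS than without at day 8, with a summed FPKM of 131 against 555, and at day 0 that sum was 483 and 549. Ly6a made up most of these sums, at 108 FPKM with ROS, 495 without ROS, and 424 and 484 at day 0. In the day 8 sample without ROS, Dlk1 (0.374 FPKM), Cd34 (19.8) and Thy1 (4.43) were below both samples of day 0. Pdgfra (35.2) and Ly6a were above them. The summed adipocyte markers were 35783 with ROS and 11669 without, and 6 of the 8 were higher with ROS. Most of each sum was Fabp4, at 31402 FPKM with ROS and 7631 without. Pparg (140 against 231) and Cfd (1182 against 1887) were lower with ROS. The part of cell state in the values of Irs2, Insr and Pik3r1 was not tested.

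The other genes of the pathway were followed in 6 lists of 57 tested genes. Of these, 30 were called at day 8 against day 0 (52.6%), 19 higher and 11 lower, beside 48.2% of all genes (24.5% higher and 23.7% lower). Among receptors and adaptors, 4 of 8 genes were higher at day 8 than at day 0, 2 were lower and 2 were not called. Sh2b2, the adaptor APS that brings CBL to the receptor, was 1.23 and 1.25 FPKM at day 0 and 53.1 with ROS and 41.1 without at day 8 (log2 difference 5.13, adjusted p = 3.46e-05, limma). Irs3, another IRS adaptor of rodent fat, rose by 3.85 (adjusted p = 3.59e-04) but reached only 3.09 and 2.69 FPKM at day 8. Igf1r, the receptor for IGF1 and a paralog of Insr, fell by 1.80 (4.00 and 4.12 FPKM at day 0, 0.974 with ROS and 1.22 without at day 8, adjusted p = 0.00447).

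Among PI3K, PDK1, mTOR and AKT kinases, no gene of 11 was higher at day 8 and 4 were lower, with a median of -0.38 against -0.03 for all genes. Pik3cd, the leukocyte-enriched catalytic subunit p110δ, fell by 2.19 (2.06 and 2.55 FPKM at day 0, 0.304 and 0.577 at day 8, adjusted p = 0.00366, limma), and Pik3r3, another regulatory subunit, fell by 1.48 (adjusted p = 0.0200). Rictor, a subunit of the mTORC2 complex that phosphorylates AKT, fell by 1.15 (9.43 and 6.73 FPKM at day 0, 3.33 and 3.77 at day 8, adjusted p = 0.0112). The AKT substrates and glucose transport list had 6 higher and 1 lower of 13. It was led by Slc2a4, the gene for GLUT4, which went from 0.0454 and 0.121 FPKM at day 0 to 92.8 with ROS and 88.2 without at day 8 (8.98, adjusted p = 1.48e-05). Pde3b, the phosphodiesterase through which insulin restrains lipolysis, rose by 4.72 (adjusted p = 2.68e-04), and Tbc1d4, the AKT substrate AS160 that gates GLUT4 traffic, by 2.74 (adjusted p = 2.97e-04).

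In the CBL and TC10 list, Cblb, a paralog of Cbl, rose by 1.10 at day 8 (3.25 and 3.20 FPKM at day 0, 7.44 and 6.67 at day 8, adjusted p = 0.00358, limma) and Crk fell by 0.53 (adjusted p = 0.0363), with 3 of 5 not called. Rhoq, the gene for TC10, fell at day 4 by 0.72 (adjusted p = 0.0300), and its difference at day 8 was -0.31 (adjusted p = 0.228). Among brakes on the pathway, 2 of 12 were higher and 3 lower at day 8. Trib3, a pseudokinase that binds AKT, rose by 2.99 (8.93 and 9.09 FPKM at day 0, 58.7 with ROS and 88.6 without at day 8, adjusted p = 2.77e-04), and the AKT phosphatase gene Phlpp1 fell by 0.98 (adjusted p = 0.00701). Inpp5d, for the lipid phosphatase SHIP1, was at most 0.135 FPKM in any sample. Of 8 genes described as FOXO1 targets, 6 were higher at day 8 and none was lower, beside 24.5% and 23.7% of all genes. They include Pnpla2, the lipase ATGL, at 8.44 and 8.41 FPKM at day 0 and 924 with ROS and 306 without at day 8 (5.96, adjusted p = 5.18e-04), and Pck1, the glyceroneogenic enzyme PEPCK, listed at 0 at day 0 and at 2.04 with ROS and 0.306 without at day 8 (3.22 on the log2(FPKM + 0.1) scale, adjusted p = 0.0144). Pdk4, a kinase that shuts pyruvate dehydrogenase, was 145 FPKM with ROS and 10.4 without at day 8, against 6.71 and 7.35 at day 0 (2.46, adjusted p = 0.109). None of the 57 genes was called between ROS and no ROS or between days 8 and 4. The lists were not chosen independently of earlier results, so these counts describe them and single out none.

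**Figure D4:**
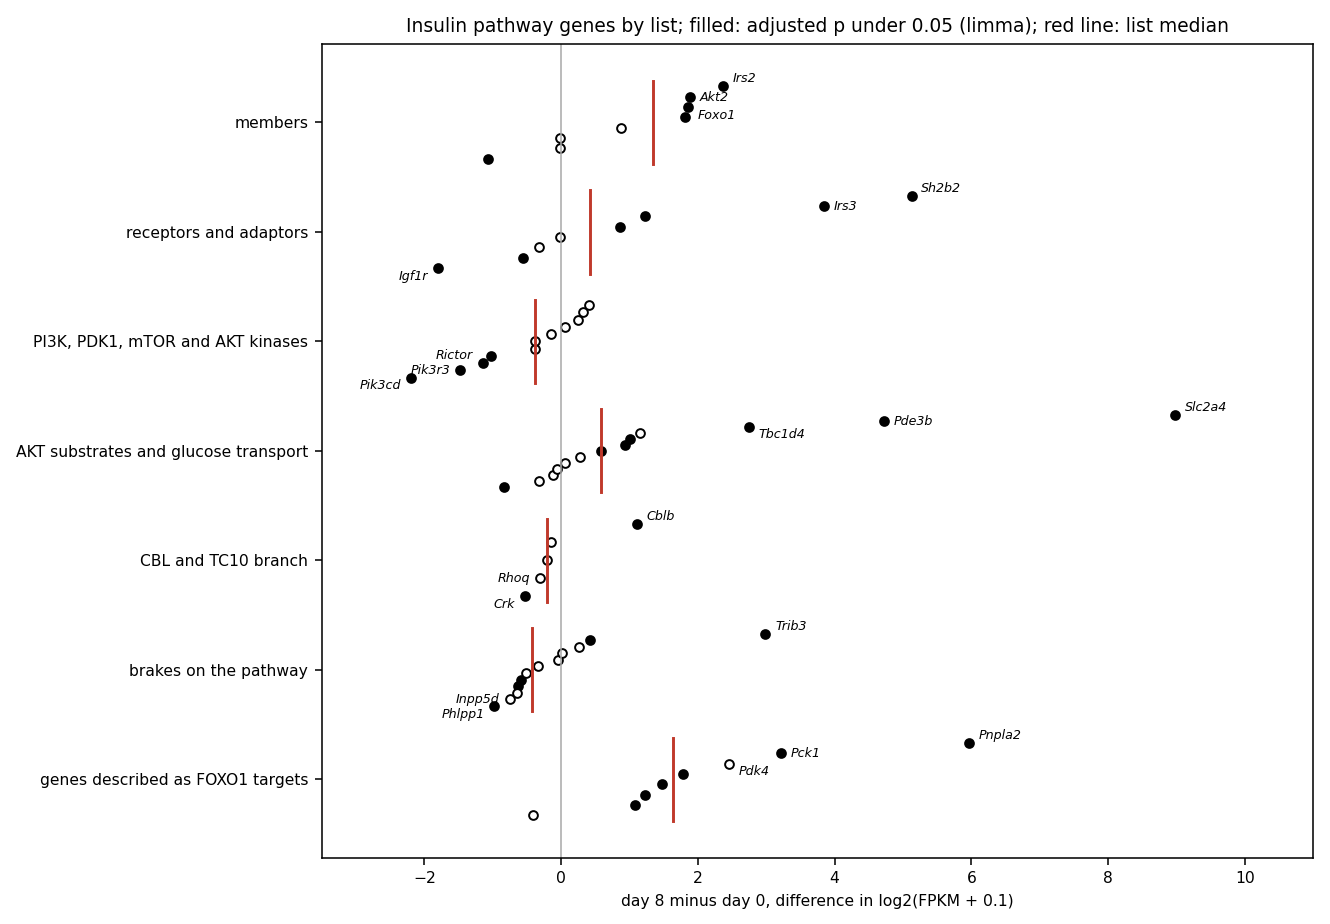
Difference in log2(FPKM + 0.1) between day 8 and day 0 (x axis) for the 8 members and for the genes of 6 lists of the insulin pathway (rows), filled where the adjusted p was under 0.05 in limma, with the list median in red and the 3 largest differences named. The medians are 1.35 for the members, 0.42 for receptors and adaptors, -0.38 for kinases and 1.63 for genes described as FOXO1 targets, and Slc2a4 lies furthest out at 8.98.

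The transduced samples were compared to learn whether the S265 mutants of hJMJD1A differ from WT. The mutants stand for a serine that cannot be phosphorylated (S265A), an acidic stand-in for the phosphate (S265D), and the latter with a lost demethylase activity (S265D-H1120Y). Limma called none of the 16402 genes in S265A against WT (0%), S265D against WT (0%) or S265D-H1120Y against S265D (0%), with 73, 77 and 146 genes at an unadjusted p under 0.05, and S265D against S265A likewise gave 0% and 58 genes. Each mutant has 1 sample, so the spread comes from WT A and WT B alone and the mutants are assumed to vary like WT.

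WT A and WT B themselves lay apart. Pik3r1 was at 48.6 FPKM in WT A against 22.3 in WT B, Akt2 at 114 against 68.4, and Akt1 at 34.9 against 22.4. One of the 8 genes, Pik3r1, differed 2-fold between the 2 samples, as did 22.8% of 15837 genes. Insr (12.4 and 11.8 FPKM) and Irs1 (11.3 and 11.5) were close. All 5 preadipocyte markers were higher in WT B, with a summed FPKM of 552 against 136 in WT A, most of it from Ly6a (496 against 116). The adipocyte markers were divided, with 5 of 8 lower in WT B. Their summed FPKM was 29396 in WT B against 15259 in WT A, most of it from Fabp4 (26902 against 12393). The part of these markers in the difference between both WT samples was not tested.

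In S265A none of the 8 genes was 2-fold away from the mean of WT, and 5.93% of 16051 genes were. In S265D the count was also 0, against 4.90% of 16089 genes, and in S265D-H1120Y against S265D it was 0, against 10.2% of 15760 genes. In S265A, 5 of the 8 genes lay within the range of WT A and WT B or above it, and Insr (10.3 FPKM), Irs1 (10.4) and Cbl (2.99) below it. S265D was below both WT samples for Irs2 (10.5 FPKM) and Cbl (3.60) and above both for Insr (12.7) and Irs1 (12.9). The 95% intervals were wide: for S265D against WT they went from -1.11 to 1.02 for Foxo1 on the log2 scale and from -2.24 to 1.71 for Pik3r1, so 2-fold differences could not be told from none. Without WT A or without WT B the difference from WT changed sign for 4 genes in each of these mutants, among them Pik3r1, which went from -0.52 to 0.60 in S265A and from -0.83 to 0.29 in S265D.

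S265D-H1120Y was the lowest of the 5 transduced samples for 6 of the 8 genes, Insr (9.14 FPKM), Irs1 (6.66), Irs2 (7.20), Akt2 (59.0), Cbl (2.75) and Foxo1 (10.6), a count made after the values were seen. Over all genes, 23.6% of 16402 were lowest in that sample. The largest difference from S265D was that of Irs1, at -0.95 (95% interval from -2.20 to 0.31, adjusted p = 1.00, limma), with 6.66 against 12.9 FPKM. Of the 8 adipocyte markers 7 were also lower in S265D-H1120Y than in S265D, with a summed FPKM of 15883 against 25266. Most of that sum was Fabp4 (14128 against 22872 FPKM). Of the 5 preadipocyte markers 4 were lower in S265D-H1120Y too, with a summed FPKM of 197 against 460, most of it from Ly6a (165 against 417). All 4 proliferation markers were lower as well (77.8 against 113). The summed endothelial markers were 4.00 against 2.47 FPKM, mostly from Pecam1 (3.47 against 1.92), with 2 of the 4 higher and 2 lower. Cd68 was 21.7 against 10.3 FPKM. The endothelial sum and Cd68 were each highest in S265D-H1120Y among the transduced samples. The part of these markers in the values of the 8 genes was not tested.

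**Figure D5:**
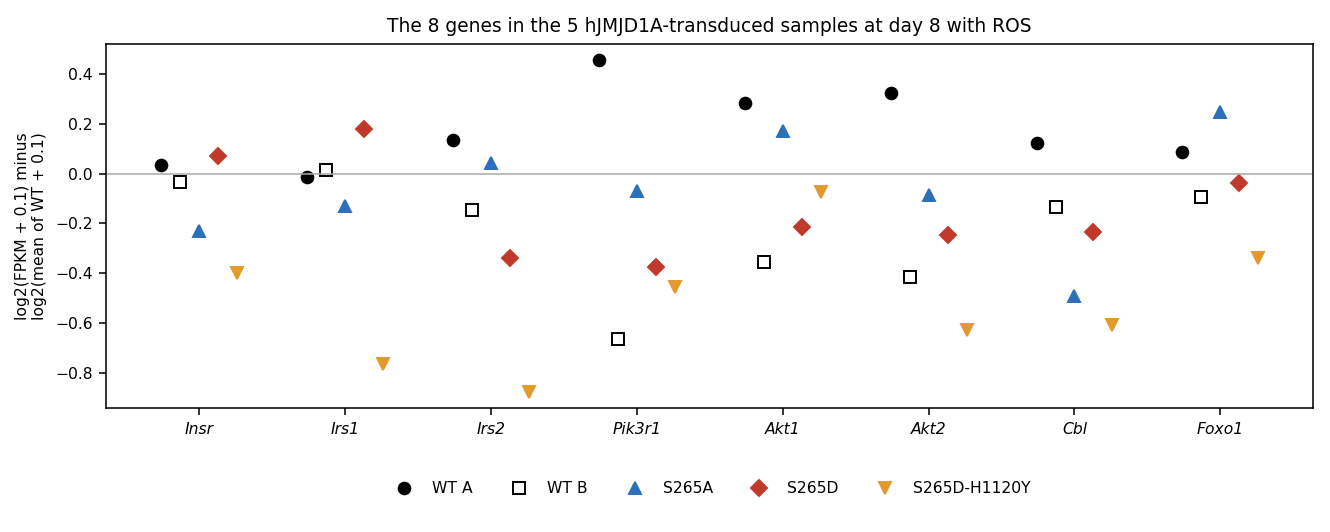
Difference in log2(FPKM + 0.1) from the WT mean (y axis) for the 8 genes in the 5 transduced samples at day 8 with ROS, 1 point for each sample. The points of WT A and WT B lie furthest apart for Pik3r1 (48.6 and 22.3 FPKM), and S265D-H1120Y has the lowest point for 6 of the 8 genes.

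The untransduced day 8 sample with ROS had been given the same ROS label as the transduced samples, and 6 of the 8 genes lay outside their range, as did 51.5% of 16494 genes (22.8% above and 28.6% below). Irs2 was 28.7 FPKM in the untransduced sample and 7.20 to 14.6 in the transduced ones, and Akt2 was 130 and 59.0 to 114. Insr, Akt1 and Foxo1 were also above the transduced range, while Pik3r1, at 13.9 FPKM, was below the 22.3 to 48.6 FPKM of the transduced samples. Irs1 and Cbl lay inside. The macrophage and endothelial sums given above were higher in the transduced samples than in this one, and their part was not tested. Transduction and any difference between the experiments in handling or sequencing cannot be told apart here.

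The genes whose log2(FPKM + 0.1) followed each member most closely over the 11 samples were looked up among 12416 genes with a mean of at least 1 FPKM. Samples of the same day share a state of differentiation, so high values are common, and the correlations describe these 11 points only. For Akt2 they were Mlycd (Pearson's r = 0.993), the malonyl-CoA decarboxylase, and Sbk1 (0.990). For Akt1 they were Pfn1 (0.989), the actin-binding profilin, and Tubb6 (0.986), a tubulin. Insr was followed most closely by Pex13 (0.984), a peroxisomal import factor, and Scp2 (0.983), and Foxo1 by Ccni (0.985) and Gm5617 (0.985). For Irs2 the closest were mKIAA0317 (0.980) and 1110018G07Rik (0.979). The values were lower for Pik3r1, with Cyb5b (0.946) and Gnb5 (0.934), for Cbl, with Hiatl1 (0.937) and Mapkbp1 (0.916), and for Irs1, with DQ560772 (0.906) and Uhmk1 (0.898). Over the 6 untransduced samples alone, the closest gene to Pik3r1 was Lifr (0.998) and that to Foxo1 was Fmo1 (1.000).

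Among the members, the closest pairs over the 11 samples were Akt2 and Foxo1 (Pearson's r = 0.963) and Insr and Irs2 (0.935). Irs1 followed Cbl (0.879) more closely than it followed Irs2 (0.513). The correlation of Akt1 with each of the other 7 was negative, from -0.839 with Insr to weak values with Irs1 (-0.249) and Cbl (-0.196).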

How the data were processed

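RNA-seq of im-scWAT cells was analysed in 11 samples. The authors prepared TruSeq libraries, mapped the reads to the mm9 genome and to UCSC transcripts (Burrows-Wheeler aligner, then a local realignment) and computed FPKM by strand. The deposited files give FPKM and the signal (coverage) as mapped bases for each of 55419 transcripts on each strand. No test for counts was used, because the files hold no read counts. Each file holds 1 sample. The sense row marked as representing a symbol was used, genes needed 0.1 FPKM in a sample of the fit, and log2(FPKM + 0.1) was tested with limma 3.58.1 (R 4.3.3; empirical Bayes with trend; Benjamini-Hochberg at 0.05). The pseudocount understates changes of low genes. Fits of day had 3 residual degrees of freedom, of ROS 2, and of the transduced samples 1. Single samples were compared by a 2-fold difference without a test. On simulated data of 16400 genes the fit of day 8 against day 0 recovered 200 of 200 genes changed by 2 or 3 log2 units, with 7 false calls. The simulation gave every gene the same spread, so it does not measure how well smaller changes or noisier genes are found.

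The 8 members and all lists were chosen with earlier results of these data known. Some genes of these lists are not reported here. Named beside the members and Kdm3a are, from each list, the genes called in a comparison of days or ROS, or, where more than 3 or none were called, the 3 with the largest difference between days 8 and 0, and for each member the 2 most correlated genes over all samples, with the first also over the untransduced samples for Pik3r1 and Foxo1. The cell markers named come from marker lists and were picked after their values were seen. Coordinates are 1-based mm9 from the files, checked against GENCODE M1, where 99.3% of 20002 coding symbols overlapped the gene of the same name. Strands are from GENCODE M1. Tables and figures used Python 3.11.15, pandas 2.3.3 and matplotlib 3.10.9. Alternatives changed the pseudocount, minimum FPKM, transcript, scaling, limma settings, grouping and samples, and 1 added after seeing the data took the arm of the ROS label as a block.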

Additional observations from a re-analysis of the deposited data

Results flagged for a closer look

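For 4 of the 8 genes the difference between ROS and no ROS had the opposite sign at days 4 and 8, with 1 sample for each condition, as it did in 32.9% of 14903 genes. The median gene was at -0.0661 at day 4 and -0.209 at day 8. Irs2 kept its sign, at 0.32 at day 4 and 2.05 at day 8, and its change between days (1.73) was the largest of the 8. For Insr, ROS minus no ROS on the log2(FPKM + 0.1) scale was -0.03 at day 4 and 0.94 at day 8. The change between days was 0.96 (95% interval from 0.51 to 1.42, unadjusted p = 0.0117, adjusted p = 0.260, limma interaction term). With median-of-ratios scaling of the 6 samples the day 4 values of Insr (0.04) and Foxo1 (0.05) were above 0, as at day 8, and 3 genes had opposite signs, Irs1, Akt1 and Cbl (-0.14 and 0.07). For Irs1 the values were -0.18 and 0.34 (adjusted p = 0.279, limma), for Akt1 0.02 and -0.32 (adjusted p = 0.418), and for Foxo1 -0.01 and 0.27 (adjusted p = 0.337). No gene of 16400 passed that test, which had 1 residual degree of freedom, and 2875 had an unadjusted p under 0.05.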

How the results depend on the processing

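Coverage of the 8 genes was deep, but only day 0 and WT have 2 samples, so each error rests on few samples. Leaving out a sample of day 0 left 3 to 4 of the 8 genes called at day 4 in place of 8, and 3 in place of 5 at day 8. Over all genes, 1797 and 1641 were called at day 4 (1196 and 1094 higher, 601 and 547 lower) in place of 6437, 2641 and 3127 at day 8 (1732 and 1916 higher, 909 and 1211 lower) in place of 7906, and 0 between days 8 and 4 in place of 73. With no minimum FPKM, 5 members were called at day 4, without Irs2, Pik3r1 and Akt2, and 3 at day 8, without Insr and Irs2. In that setting 3417 genes were called at day 4, 4833 at day 8, 12 between days 8 and 4, 27 for ROS, 1717 for the change of the ROS effect, and 697, 738, 981 and 1006 for S265A and S265D against WT, S265D against S265A and S265D-H1120Y against S265D, none of them a member outside the comparisons with day 0. The cause was not tested. Between days 8 and 4, 38 genes were called with a pseudocount of 0.01, 18 without the trend and 0 with 5 groups.

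Median-of-ratios scaling moved the median ROS difference from -0.134 to -0.00956, gave 2 members 2-fold apart at day 8 between ROS and no ROS in place of 1, and called Pik3r1 at day 8 against day 0 (0.94, adjusted p = 0.0205). In all, 13 differences of single members changed sign, none of them called. At day 8 against day 0, Irs1 was 0.0399 and Cbl 0.0419 with that scaling, and without a sample of day 0 they went from -0.0482 to 0.0082 and from -0.1171 to 0.084. Insr in S265D against WT was -0.0875 with the transcript of the highest mean FPKM. The other 8 were differences from WT without 1 WT sample. With WT A or WT B left out, S265A went from -0.09 to 0.18 for Irs2, from -0.52 to 0.60 for Pik3r1, from -0.11 to 0.53 for Akt1 and from -0.41 to 0.33 for Akt2. S265D went from -0.83 to 0.29 for Pik3r1, from -0.50 to 0.14 for Akt1, from -0.57 to 0.17 for Akt2 and from -0.13 to 0.05 for Foxo1. Of 688 values of single members under an alternative, 654 kept both their sign and their side of the threshold. Replicate numbers could not pair the samples, because the groups compared share fewer than 2 of them. The arm of the ROS label does pair samples of different days. With the arm of the ROS label (plus or minus, day 0 included) as a block, chosen after seeing the data, 8 members were called at day 4, 6 at day 8, with Pik3r1 added (0.88, adjusted p = 0.0380), and 0 between days 8 and 4, where 36 genes of all were called in place of 73.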
